A study of Mus musculus with 16 samples.

Results

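The libraries described here hold RNA of CD8 T cells sorted from HM1 tumours, a transplantable mouse ovarian cancer model. They are all 6 of the 16 libraries of the series whose labels name CD8 tumour-infiltrating lymphocytes, and they form 2 groups. In the control group (n = 3) the tumours grew without added mannose, and in the mannose group (n = 3) the sugar mannose was supplied. Both groups share the tumour model and the sort. The labels give no mouse strain, age, mannose dose or duration, no sort gate and no animal numbers, nor do they state if either group received the anti-PD-1 treatment that the title of the series names. The comparison of the groups addresses how mannose supplementation changes expression in the T cells that infiltrate these tumours. The other 10 libraries are whole tumours, 5 control and 5 mannose, and are used only to show where the sorted cells differ from the tissue.

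CD8 T cells recognise peptides on MHC class I through the T cell receptor and its CD3 signalling chains, and kill with perforin and granzymes. In tumours, lasting antigen exposure drives them towards exhaustion, a state with high levels of inhibitory receptors such as PD-1, while a smaller pool with the transcription factor TCF1 renews them. Mannose enters cells through glucose transporters and is phosphorylated by hexokinase, and its phosphate either enters glycolysis through the isomerase encoded by Mpi or feeds the N-glycans of surface proteins.

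Values are TPM, a level scaled to gene length and to a common total per library. Read depth is not known and no counting error can be given. The sorted libraries each had 13538 to 14384 symbols at 1 TPM or more. The labels do not say that replicates came from separate animals, so a p-value here reflects only how far these libraries spread, which may be technical. A gene is said to have risen or fallen where limma, a linear model fitted across all genes on log2(TPM + 1), gave a Benjamini-Hochberg adjusted p under 0.05. Differences are mannose minus control on that scale, with standard errors (SE), and understate the change of genes at low levels.

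The labelled cell type was present in every library. Cd8a, which encodes the CD8 alpha chain, stood at 591, 570 and 586 TPM in the control libraries and at 285, 378 and 564 TPM in the mannose libraries. Cd3e, a CD3 chain of the receptor, stood at 619, 558 and 587 TPM in the controls and 274, 354 and 552 TPM with mannose, and Cd8b1, the CD8 beta chain, at 346, 325 and 352 against 197, 245 and 316 TPM. The third mannose library lay close to the controls in all 3 markers, while the other two lay well below. None of the 3 genes passed the test (adjusted p of 0.0925, 0.0740 and 0.0685 in limma).

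Several properties of the libraries bear on every result. Control libraries 1 and 2 used T cell receptor beta V segments in nearly the same shares (r = 0.9987 across 35 segments), as did mannose libraries 1 and 2 (r = 0.9948), while all other pairs of libraries gave 0.267 to 0.763. Shares of V segments differed by 4.03% and 6.39% within these pairs and by 37.31% to 57.84% between other libraries. Such pairs may not count as separate samples, so counts are also given with each pair averaged into 1 sample, which leaves 2 samples a group. The geometric mean of 6 T cell markers (Cd3e, Cd3d, Cd3g, Cd8a, Cd8b1 and Trac) was 550, 521 and 569 TPM in the controls and 276, 358 and 526 TPM with mannose. Results are also given with every library scaled to this mean. This scaling moves the median difference of all genes from 0.09 to 0.58. All 6 value columns are headed as mannose samples, so the direction of every difference rests on the sample labels. Mitochondrial transcripts held 3.93% to 4.43% of TPM in controls and 4.61% to 5.11% with mannose, and ribosomal protein genes held 18.3% to 18.8% and 19.1% to 21.7%.

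Markers of cells other than T cells were present and differed between the groups, as the plot of summed list levels shows. The 20 macrophage and monocyte markers summed to 6964, 6927 and 6667 TPM in the controls and 2444, 1962 and 2183 TPM with mannose, and none was at 0. The 18 carcinoma and epithelial markers summed to 583, 578 and 264 TPM in the controls and 2692, 2309 and 1761 TPM with mannose. Among these, Muc16 was at 0 in all 6 libraries and Epcam stayed at 0.27 to 0.91 TPM. The 10 B and plasma cell markers summed to between 129 and 145 TPM in controls and between 101 and 121 TPM with mannose, most of it from Xbp1, a factor that other cells also express, while Ms4a1 was at 0 everywhere. The 12 natural killer cell markers summed to between 1704 and 1800 TPM in controls and between 708 and 1420 TPM with mannose. Some of these genes, such as Klrk1 and Klrd1, can be expressed by CD8 T cells too, so the sum is no measure of natural killer cells. Ncr1, also on this list, reached at most 0.52 TPM. Of the 9 tested 1, Tyrobp, which myeloid cells also express, fell (11.1% against 11.7% of all genes) and none rose. The part that these other cells played in the results below was not tested, and in bulk RNA fewer cells of a type cannot be told apart from less RNA of these genes per cell.

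**Figure D1:**
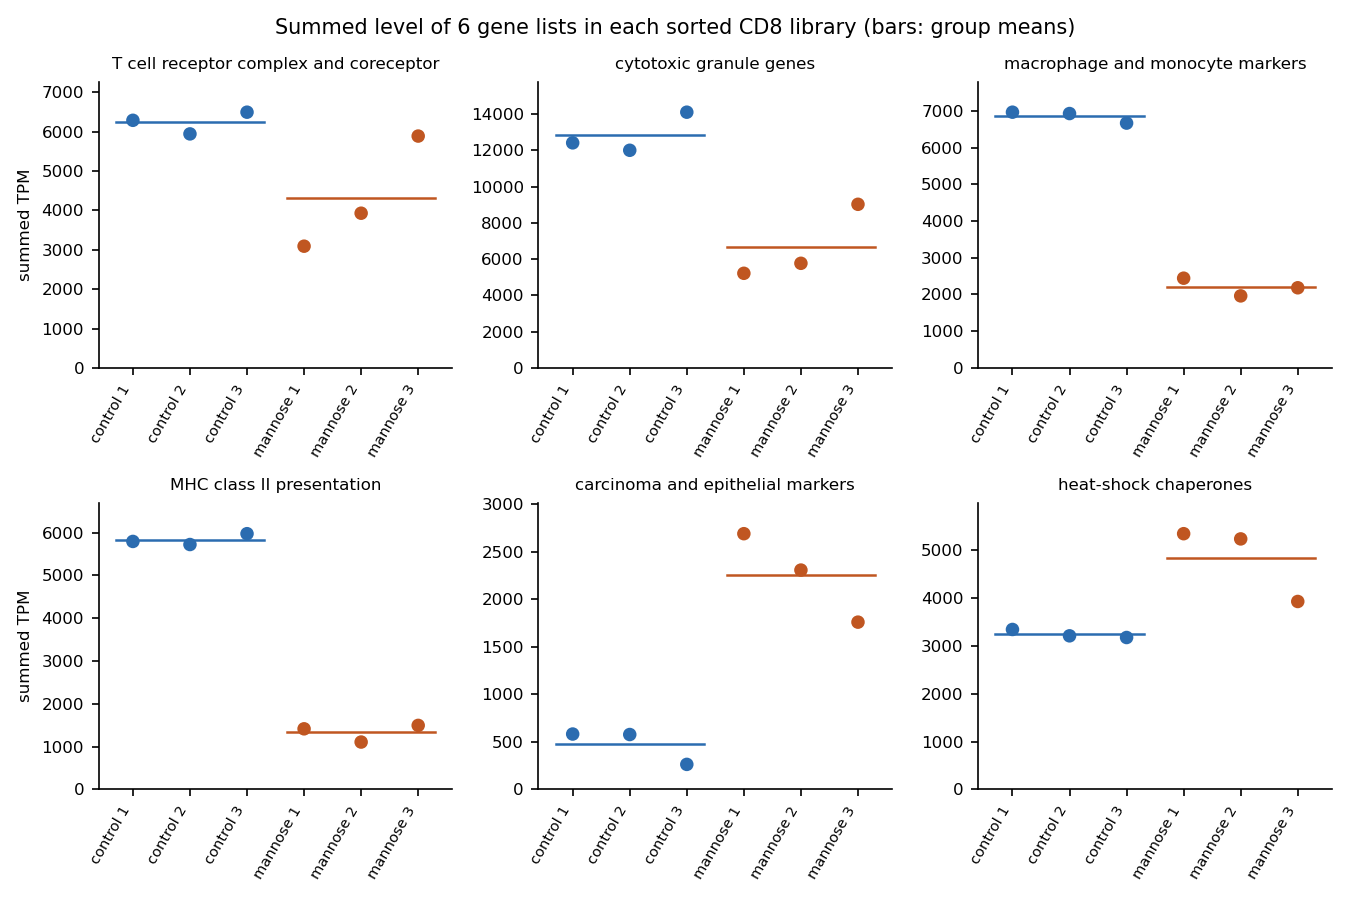
Summed TPM (y axis, linear) of 6 gene lists in each sorted CD8 library (x axis); points are libraries, control in blue and mannose in orange, and bars are group means. Macrophage and MHC class II lists are lower in all 3 mannose libraries, the carcinoma list is higher in all 3, and the T cell receptor list of mannose library 3 (5885 TPM) lies next to the lowest control (5940 TPM).

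Of 14280 genes tested, 3306 rose with mannose (23.2%) and 1674 fell (11.7%), 34.9% in either direction. The difference reached 2-fold for 1425 of the genes that rose and 621 of those that fell. With the like pairs averaged, 1202 genes rose (8.42%) and 585 fell (4.1%), 12.5% in either direction, of which 1193 and 585 were also called with all libraries apart. Scaled to T cell markers, 4146 rose (29.0%) and 425 fell (2.98%), 32.0% in either direction. The calls kept under T cell marker, median-ratio and quantile scaling alike were 2388 rises and 422 falls. No fall turned into a called rise under T cell marker scaling, though 353 changed sign. Calls also depended on single libraries: without mannose library 2 the counts were 1979 rises and 937 falls, without mannose library 1 they were 2091 and 1057, without control library 2 the falls were 1075, and without mannose library 3, the library nearest the controls, they were 3491 and 2511. The values of all mannose libraries lay above all controls for 4752 genes (33.3%) and below them for 2582 (18.1%).

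Genes of the T cell receptor complex were lower on average, but only 4 of 13 passed the test: Cd3d, Cd247, Cd5 and Cd6 fell, 30.8% of the list against 11.7% of all genes. The list's median difference was -0.64, against 0.09 for all genes. Cd3d, a CD3 chain, measured 217, 212 and 242 TPM in the controls and 98.6, 131 and 192 TPM with mannose. All 3 mannose values lay below the controls, and the difference was -0.72 (SE 0.22, adjusted p = 0.0457 in limma). Cd5, a brake on receptor signalling, went from 129, 118 and 86.0 TPM to 24.7, 33.4 and 81.1 TPM (-1.40, SE 0.41, adjusted p = 0.0374), and here mannose library 3 nearly met control library 3. Cd6, a related brake, had 188, 178 and 163 TPM against 46.9, 62.9 and 132 TPM. Of the kinases and adaptors that carry the receptor signal 6 of 15 fell (40.0%). Malt1, part of the complex that links the receptor to NF-kappaB, fell most, from 232, 201 and 192 TPM to 54.8, 67.4 and 103 TPM (-1.51, SE 0.22, adjusted p = 0.00352), with no overlap between groups. The kinase Lck, at 417, 405 and 418 against 191, 243 and 381 TPM, did not pass. Scaled to T cell markers the medians of both lists were -0.09 and -0.04. The first list holds all 6 scaling markers, so its scaled median is largely set by the scaling itself. How far these falls and those of the T cell lists that follow went with the T cell marker mean given above was not tested. Calls rest on few libraries: no receptor complex gene was called without control library 1, control library 3 or mannose library 2, and 12 were called without mannose library 3. The signalling falls numbered 1 (Malt1) without any of the other 5 libraries and 14 without mannose library 3, and with like pairs averaged 0 and 1 remained called.

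Of 17 cytotoxic granule genes, the killing machinery of these cells, 10 fell and none rose, 58.8% against 11.7% of all genes, with a median of -0.81. Gzmb, the main granzyme of effector cells, measured 2837, 2778 and 3107 TPM in controls and 971, 1196 and 2262 TPM with mannose. Every mannose value lay below the controls, and the difference was -1.07 (SE 0.29, adjusted p = 0.0280 in limma). Gzmf, a member of the granzyme c to g cluster whose members are close in sequence and could share reads, had 984, 937 and 1220 TPM against 313, 294 and 469 TPM (-1.56, SE 0.19, adjusted p = 0.00234). Srgn, the proteoglycan core of the granules, went from 2000, 1902 and 2479 TPM to 684, 715 and 879 TPM (-1.48, SE 0.14, adjusted p = 0.000988). In both genes mannose library 3 also lay far under the lowest control. Prf1, the pore-forming perforin, did not pass, at 921, 859 and 882 TPM against 417, 488 and 995 TPM, and there mannose library 3 exceeded every control. Gzmk, a granzyme of less differentiated cells, had 154, 146 and 129 against 117, 148 and 146 TPM, and Gzma had 157, 149 and 245 against 88.6, 127 and 196 TPM. Neither passed. Gzmc, Gzmd, Gzmf, Gzmg and Srgn were still called with like pairs averaged, 5 of 17 against 4.1% of all genes. Scaled to T cell markers the median was -0.26 and 3 were called. The call of Gzmb ended without any 1 of control libraries 1, 2 and 3 or mannose libraries 1 and 2 (adjusted p of 0.0666 to 0.0956, differences of -0.82 to -1.10), and the list's falls numbered 6 without mannose library 2.

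Effector cytokines moved in both directions. Of 11 tested, 5 fell (Tnf, Ccl3, Ccl4, Tnfsf14 and Ltb) and 1 rose (Csf2), 45.5% and 9.09% against 11.7% and 23.2% of all genes, with a median of -0.77. Tnf, the inflammatory cytokine, measured 52.8, 50.2 and 75.3 TPM in controls and 12.8, 12.6 and 20.7 TPM with mannose (-1.90, SE 0.23, adjusted p = 0.00232 in limma). Csf2, which encodes GM-CSF, a growth factor for myeloid cells, went the other way, from 19.9, 18.3 and 23.8 TPM to 41.2, 35.7 and 58.3 TPM (1.07, SE 0.19, adjusted p = 0.00691). The groups of both genes were apart, and both calls held with like pairs averaged, with T cell marker scaling and with any library left out. Ifng, the interferon of effector T cells, was lower in mannose libraries 1 and 2 and within the control range in the third, at 141, 139 and 103 TPM against 47.1, 58.8 and 137 TPM, and did not pass. Ccl5 did not pass either, at 1712, 1747 and 1479 against 701, 1113 and 1498 TPM. The number of falls in this list was 3 without mannose library 2 and 8 without mannose library 3.

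Of 14 inhibitory receptors 5 fell (Pdcd1, Havcr2, Entpd1, Vsir and Lilrb4a) and none rose, 35.7% against 11.7% of all genes, with a median of -0.61. Pdcd1, which encodes PD-1, measured 713, 678 and 826 TPM in controls and 289, 380 and 593 TPM with mannose. The groups did not overlap, and the difference was -0.87 (SE 0.25, adjusted p = 0.0330 in limma). Havcr2, the TIM-3 receptor of terminal exhaustion, had 141, 134 and 138 TPM against 65.2, 72.5 and 111 TPM (-0.76, SE 0.19, adjusted p = 0.0218). Lag3 at 296, 313 and 376 against 156, 186 and 313 TPM, Tigit at 290, 290 and 315 against 144, 191 and 262 TPM and Ctla4 at 394, 382 and 392 against 205, 265 and 387 TPM did not pass, with adjusted p of 0.0871 for Lag3 and 0.112 for Ctla4 and that of Tigit just over the threshold. Scaled to the markers the list's median was -0.09 and 1 gene, Lilrb4a, was called. Lilrb4a is also expressed by myeloid cells, and with like pairs averaged it was again the 1 call. The calls of Pdcd1 and Havcr2 ended without any 1 of the 3 controls or mannose libraries 1 and 2 (adjusted p of 0.0665 to 0.102 and of 0.0561 to 0.0798, with differences of -0.63 to -0.93 and of -0.61 to -0.78). Without mannose library 3, 12 of the 14 genes were called.

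**Figure D2:**
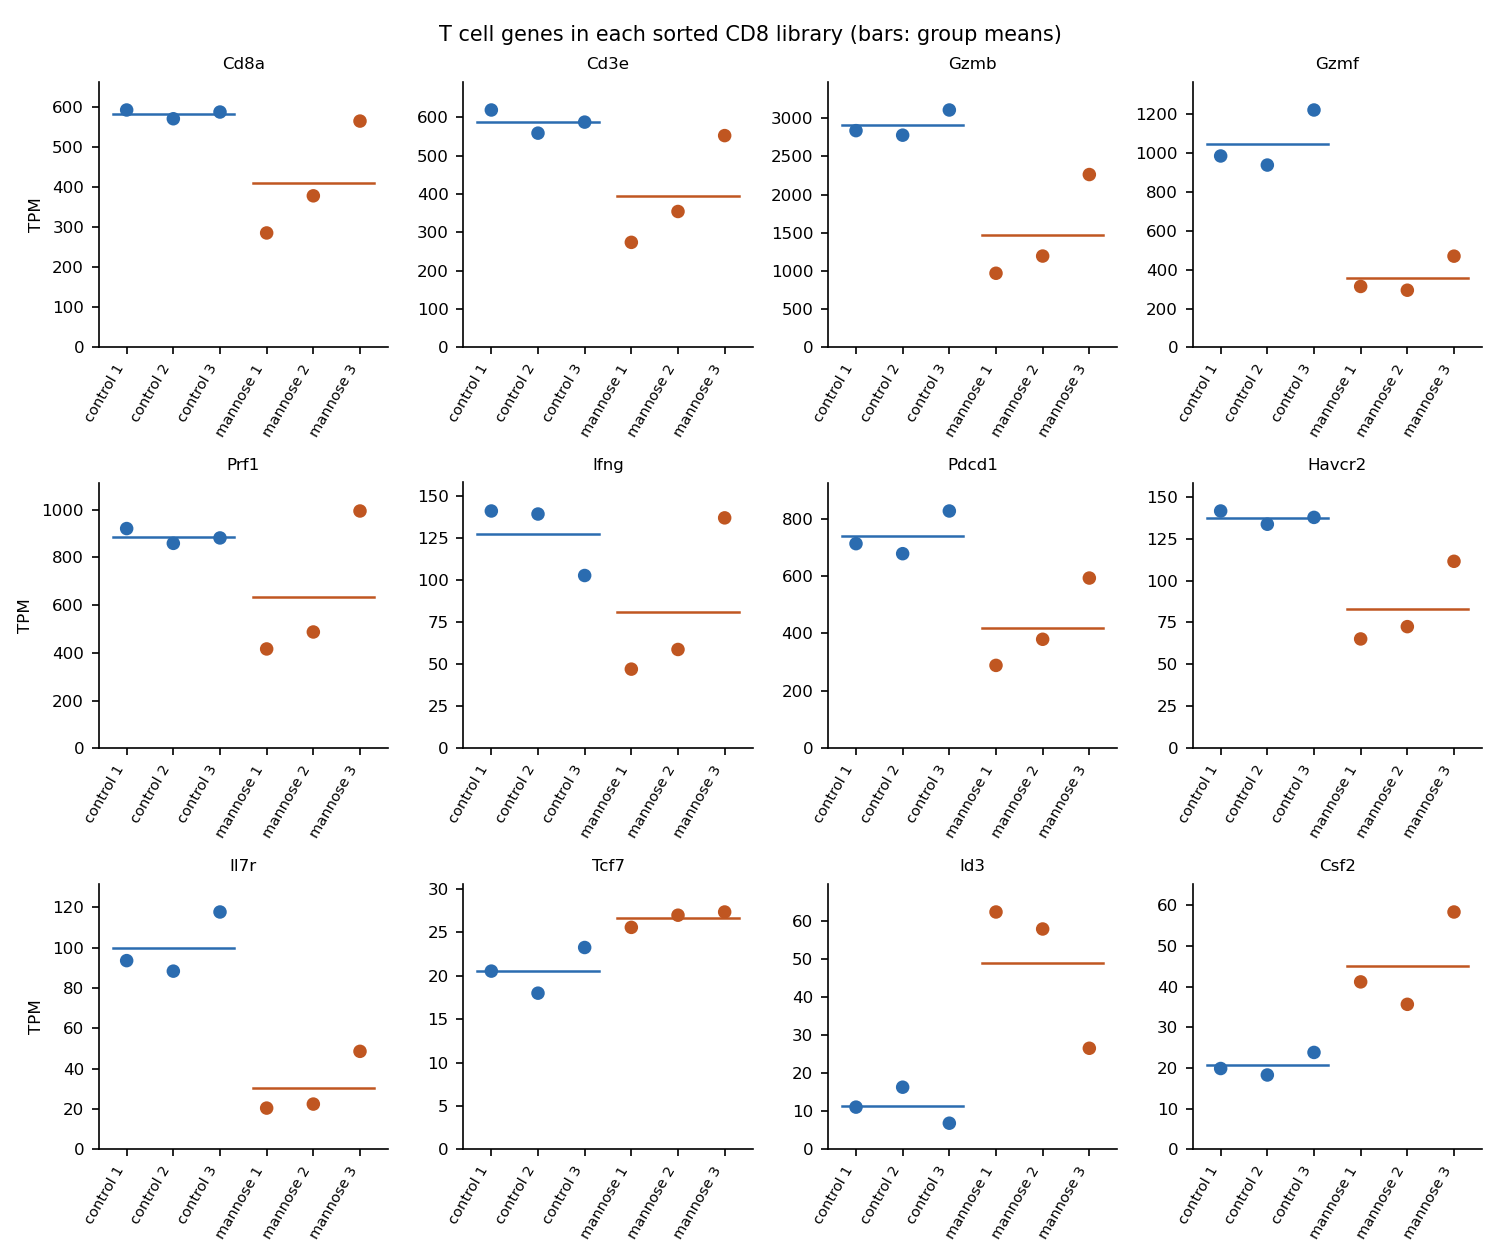
TPM (y axis, linear, own range for each gene) of 12 T cell genes in each sorted CD8 library (x axis); points are libraries and bars are group means. Mannose library 3 lies between the other mannose libraries and the controls for Pdcd1 and Gzmb, exceeds the controls for Prf1, lies within their range for Ifng, lies below all controls for Gzmf and Il7r, and lies above them for Id3 and Csf2, in Id3 nearer to the controls than the other mannose libraries do.

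Of 16 factors of exhaustion and effector states 5 fell (Nr4a3, Irf4, Id2, Ikzf2 and Runx3) and none rose, 31.2% against 11.7% of all genes. Their median was -0.39, but 0.15 when scaled to T cell markers. Tox, the factor that sustains exhaustion, had 52.3, 50.9 and 45.4 TPM in the controls and 31.2, 42.8 and 53.9 TPM with mannose, overlapping ranges that did not pass (adjusted p = 0.360 in limma). Nr4a3, a factor induced by receptor signalling, went from 69.5, 76.8 and 89.1 TPM to 18.9, 26.4 and 44.8 TPM (-1.44, SE 0.29, adjusted p = 0.00981). No factor was called with like pairs averaged, and the falls among factors numbered 2 without control library 3 or mannose library 2 and 11 without mannose library 3.

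Among 16 memory and stem-like genes 3 rose (Tcf7, Id3 and Foxp1) and 5 fell, among them Lef1, Il7r, Slamf6 and Satb1. These are 18.8% and 31.2% of the list against 23.2% and 11.7% of all genes, with a median of -0.21 that turned to 0.26 under T cell marker scaling. Tcf7, which encodes TCF1, measured 20.5, 18.0 and 23.3 TPM in controls and 25.6, 27.0 and 27.4 TPM with mannose, a small rise (0.36, SE 0.12, adjusted p = 0.0492). That call ended without any 1 library other than control library 3 (adjusted p of 0.0824 to 0.151, differences of 0.27 to 0.39). Id3, a factor that favours long-lived cells, differed far more, at 11.1, 16.4 and 6.90 TPM against 62.5, 58.0 and 26.6 TPM (1.99, SE 0.39, adjusted p = 0.00952). Il7r, the receptor for the survival cytokine IL-7, fell from 93.5, 88.3 and 118 TPM to 20.5, 22.5 and 48.6 TPM (-1.78, SE 0.31, adjusted p = 0.00634). Il7r was lower, and Id3 and Foxp1 higher, in all 3 mannose libraries than in any control, but no gene of this list was called with like pairs averaged (adjusted p of 0.0671 for Foxp1, 0.0585 for Id3 and 0.0554 for Il7r).

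Of 14 cytokine receptors 9 fell and none rose (64.3% against 11.7% of all genes), with a median of -0.82. Il12rb2, a chain of the IL-12 receptor that promotes interferon-gamma, had the largest fall, from 61.5, 59.8 and 72.9 TPM to 12.7, 17.4 and 31.0 TPM (-1.71, SE 0.29, adjusted p = 0.00567 in limma). Il2ra, the high-affinity IL-2 receptor chain, went from 43.2, 42.7 and 52.3 TPM to 11.7, 14.1 and 31.8 TPM, a call that ended without any 1 of the controls or mannose libraries 1 and 2 (adjusted p of 0.0534 to 0.0793, differences of -1.07 to -1.39). Of 9 costimulatory receptors 5 fell, among them Tnfrsf9, the 4-1BB receptor, at 796, 738 and 846 against 379, 468 and 596 TPM. Of 12 residency and migration genes 7 fell, among them the chemokine receptor Ccr2, at 33.9, 34.6 and 24.3 against 8.35, 9.81 and 17.5 TPM. Monocytes express Ccr2 as well. Il12rb2 and Ifnar1 among cytokine receptors and Rgs1 among residency genes stayed called with like pairs averaged, and no costimulatory receptor did. The 3 lists had 4, 2 and 1 falls at the least with 1 library left out (cytokine receptors without mannose library 2 or any control, residency genes without control library 1, costimulatory receptors without any library other than mannose library 3) and 11, 9 and 8 without mannose library 3.

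Few cell cycle genes passed the test. Among the 29 tested, 2 rose (Plk1 and E2f1) and 1 fell (Cenpa), 10.3% against 34.9% of all genes, and their median was 0.08, near the 0.09 of all genes (with median-ratio scaling it was -0.01). The dividing-cell marker Mki67 measured 47.1, 43.3 and 34.8 TPM in the controls and 36.7, 47.4 and 47.6 TPM with mannose, and Top2a, the topoisomerase of dividing cells, 144, 139 and 129 against 132, 164 and 166 TPM. Neither passed. Relative to T cell markers the list's median was 0.62, close to the 0.58 of all genes on that scale. Plk1 lost its call without control library 2, control library 3 or mannose library 2 and E2f1 without any library but mannose library 3. None was called with like pairs averaged. Where a call ended, the differences lay between 0.34 and 0.41 for Plk1 and between 0.30 and 0.36 for E2f1.

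Among markers of T cells outside the CD8 lineage, Cd4 fell from 12.8, 14.8 and 13.4 TPM to 5.29, 5.67 and 6.83 TPM (-1.09, SE 0.14, adjusted p = 0.00239 in limma), with no overlap. Foxp3, the factor of regulatory T cells, had 4.23, 4.26 and 4.10 against 1.47, 1.71 and 2.94 TPM. The chemokine receptor Ccr8 reached 37.5 TPM and did not pass. Gamma-delta T cell markers summed to between 153 and 205 TPM in controls and between 107 and 135 TPM with mannose, most of it from the receptor constant gene Trgc2, at 190, 172 and 130 against 97.6, 124 and 75.8 TPM. Of the 7 listed only the gamma chain genes Trgc1, Trgc2 and Trgc4 were high enough to test. The delta chain gene Trdc was not, nor were Sox13, Cd163l1 and Il17a.

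The most uniform falls were in genes of myeloid cells, which a sort for CD8 T cells would leave out but whose RNA was present at high levels. All 20 macrophage and monocyte markers fell (100% against 11.7% of all genes), with a median of -1.86. Csf1r, the receptor that macrophages depend on, measured 194, 176 and 164 TPM in controls and 48.0, 50.5 and 41.6 TPM with mannose (-1.91, SE 0.11, adjusted p = 0.000228 in limma). Itgam, the integrin CD11b, had 197, 200 and 182 TPM against 36.5, 34.2 and 40.2 TPM (-2.36, SE 0.09, adjusted p = 0.000134), and the IgG receptor Fcgr1 had 68.8, 72.0 and 93.0 against 11.1, 6.97 and 11.0 TPM. In contrast to Cd8a, Cd3e and Cd8b1, mannose library 3 lay with the other mannose libraries in these genes. With like pairs averaged 17 of the 20 were called (4.1% of all genes), scaled to T cell markers 15 were (2.98% of all genes) with a median of -1.32, and with any library left out at least 18 were. Apoe, at 605, 644 and 589 against 504, 434 and 466 TPM, had the smallest difference of the list.

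Genes of antigen presentation by MHC class II, the molecules that myeloid and B cells use to present to CD4 T cells, fell in the same way. All 8 tested members fell, with a median of -1.95, and in all 8 the groups were apart (18.1% of all genes had mannose lower throughout). H2-Aa measured 1095, 1053 and 1067 TPM in controls and 248, 199 and 267 TPM with mannose (-2.18, SE 0.11, adjusted p = 0.000203 in limma). Cd74, the chaperone of the class II dimer, had 3019, 2788 and 3007 against 719, 543 and 770 TPM. All 8 were called with any library left out, 6 with like pairs averaged and 7 scaled to T cell markers (median -1.41). Fewer genes of MHC class I, used by nearly every cell, passed the test. There 3 of 13 fell (Tap1, Psmb8 and Psmb9; 23.1% against 11.7% of all genes), the light chain gene B2m measured 5478, 5310 and 5506 against 5154, 5000 and 5175 TPM, and the median was -0.25, or 0.30 when scaled. No class I call held with like pairs averaged, and the count was 0 without control library 2, control library 3, mannose library 1 or mannose library 2 and 10 without mannose library 3.

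Among 12 dendritic cell markers 9 fell and among 10 neutrophil markers 8 fell (75.0% and 80.0% against 11.7% of all genes), with medians of -0.87 and -1.51. Itgax, the integrin CD11c, went from 78.4, 77.0 and 66.4 TPM to 18.8, 15.7 and 18.6 TPM (-2.01, SE 0.11, adjusted p = 0.000229 in limma). The gelatinase gene Mmp9 went from 758, 745 and 619 TPM to 276, 191 and 172 TPM, and the decoy receptor Il1r2 from 301, 286 and 377 TPM to 70.1, 61.0 and 77.2 TPM. Levels differed widely among the markers: the neutrophil gene Ly6g reached at most 0.84 TPM while S100a8, a calprotectin subunit, had 78.4, 75.1 and 154 against 41.1, 39.6 and 20.2 TPM, and the dendritic cell gene Xcr1 reached at most 0.55 TPM while Batf3, a factor of the same cells, had 3.31, 9.13 and 7.35 against 3.42, 2.65 and 3.05 TPM. The neutrophil list summed to between 1405 and 1741 TPM in controls and between 364 and 567 TPM with mannose. The calls that held with like pairs averaged were Itgax, Ccl17 and Clec10a for dendritic cells and Csf3r, Mmp8, Mmp9 and Il1r2 for neutrophils. With 1 library left out the falls numbered at least 4 and 5 (dendritic cell markers without control library 2 or mannose library 2, neutrophil markers without control library 3, mannose library 1 or mannose library 2).

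NF-kappaB is the family of factors that switches on inflammatory cytokines after Toll-like receptor or cytokine signals. Of 17 of its inflammatory target genes and subunits 15 fell and none rose (88.2% against 11.7% of all genes), with a median of -0.90. The cytokine Il1b measured 1858, 1812 and 2039 TPM in controls and 387, 298 and 393 TPM with mannose (-2.41, SE 0.12, adjusted p = 0.000203 in limma). Nlrp3, the sensor of the inflammasome that processes it, had 117, 109 and 139 against 19.4, 17.6 and 25.2 TPM (-2.51, SE 0.15, adjusted p = 0.000241). The neutrophil attractants fell by different amounts: Cxcl2 from 994, 1027 and 1609 TPM to 301, 244 and 261 TPM, Cxcl1 from 230, 251 and 295 TPM to 91.7, 79.3 and 52.8 TPM, and Cxcl3 from 635, 683 and 748 TPM to 421, 341 and 216 TPM, with no overlap in any of them. Il6 did not pass, at 34.5, 31.8 and 31.2 against 35.4, 29.7 and 20.4 TPM. With like pairs averaged 10 were called, with T cell marker scaling 7 were and the median was -0.36, and with 1 library left out at least 12 were.

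The promoters of these genes were searched for a shared motif in the 250 bases upstream of each start, on both strands, in RefSeq sequences of the build GRCm38.p6. The NF-kappaB motif, written GGGA, any base and then TTTCC, was present in 6 of the 12 list members with a promoter in the table, against 0.414% of all genes with one. Of the 6 with the motif 5 fell, and of the 6 without it 5 fell. Nearly all of these genes fell, so the comparison cannot tell whether holding the motif went with falling. Shown are 4 stretches that hold it, in the direction of the gene and with the motif in capitals, to let the sites of the 3 chemokines be compared with that of the inhibitor gene Nfkbia.
Cxcl1: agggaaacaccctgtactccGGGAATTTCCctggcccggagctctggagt
Cxcl2: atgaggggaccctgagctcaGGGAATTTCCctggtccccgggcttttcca
Cxcl3: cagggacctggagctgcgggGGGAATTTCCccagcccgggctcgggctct
Nfkbia: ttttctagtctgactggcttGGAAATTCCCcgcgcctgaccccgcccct
These lie at chr5:90891154-90891203 (plus strand), chr5:90903782-90903831 (plus), chr5:90786008-90786057 (plus) and chr12:55492648-55492696 (minus). The match begins 71, 97, 73 and 29 bases before the start in that order, and Nfkbia carries it on the opposite strand. Nfkbia fell less than the chemokines, from 451, 447 and 604 TPM to 301, 332 and 351 TPM (-0.60, SE 0.13, adjusted p = 0.0144 in limma), a call that ended without mannose library 1 or 2 (adjusted p up to 0.0528). A match describes the letters only and shows no binding.

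Type I interferons act through the ISGF3 complex on antiviral genes, and 16 of 23 such genes fell while 1, Bst2, rose (69.6% falls against 11.7% of all genes), with a median of -0.84. Rsad2, which encodes the antiviral enzyme viperin, measured 46.6, 49.1 and 94.3 TPM in controls and 8.82, 7.80 and 10.1 TPM with mannose (-2.63, SE 0.27, adjusted p = 0.00139 in limma). Isg15, a ubiquitin-like protein, had 179, 174 and 319 against 54.9, 50.9 and 73.6 TPM (-1.85, SE 0.26, adjusted p = 0.00298). Control library 3 was the highest in both genes, and the groups did not overlap. Bst2, the membrane protein tetherin, rose from 150, 164 and 172 TPM to 235, 205 and 211 TPM (0.42, SE 0.09, adjusted p = 0.0115). In 19 of the 23 genes all mannose values lay below all controls (18.1% of all genes). Averaging like pairs left Isg15, Mx2, Oasl1 and Rsad2 called, with T cell marker scaling 5 fell and the median was -0.31, and without mannose library 2 the falls numbered 8.

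The interferon-stimulated response element, searched in the same way as GAAA, any 2 bases and GAAA, was present in 8 of the 15 listed genes with a promoter in the table, against 3.46% of all genes. Of these 8, 5 fell, 1 rose and 2 did not pass, and of the 7 without it 6 fell. The stretches of 3 genes that fell and of Bst2, which rose, are shown with the matches in capitals, joined where matches overlap.
Isg15: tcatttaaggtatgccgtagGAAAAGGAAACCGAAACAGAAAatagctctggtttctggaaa
Ifit1: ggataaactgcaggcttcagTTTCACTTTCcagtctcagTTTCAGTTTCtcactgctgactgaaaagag
Rsad2: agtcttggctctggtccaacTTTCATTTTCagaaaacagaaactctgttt
Bst2: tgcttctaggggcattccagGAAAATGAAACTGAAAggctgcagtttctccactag
These lie at chr4:156200855-156200916 (minus strand), chr19:34640765-34640833 (plus), chr12:26456543-26456592 (minus) and chr8:71537567-71537622 (minus). Isg15 holds 3 overlapping matches from 78 bases upstream, Ifit1 holds 2 from 104 bases upstream and Rsad2 holds 1 at 120 bases, while Bst2 holds 2. Ifit1, an inhibitor of viral RNA translation, fell from 19.2, 17.7 and 33.2 TPM to 7.74, 9.25 and 11.0 TPM. The element thus occurred in promoters of genes that moved in opposite directions.

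Of 17 interferon-gamma-induced genes, 5 fell (Cxcl9, Cxcl10, Gbp3, Gbp5 and Cd274) and 3 rose (Ido1, Iigp1 and Tgtp1), 29.4% and 17.6% against 11.7% and 23.2% of all genes, with a median of -0.23 that became 0.31 under T cell marker scaling. Ido1, which encodes a tryptophan-degrading enzyme, rose from 7.42, 7.45 and 3.64 TPM to 22.5, 19.0 and 35.8 TPM (1.91, SE 0.31, adjusted p = 0.00495 in limma), and here mannose library 3 was the highest. Cd274, which encodes the PD-1 ligand PD-L1, fell from 137, 131 and 155 TPM to 45.0, 46.4 and 73.8 TPM (-1.38, SE 0.19, adjusted p = 0.00312). Both calls held with like pairs averaged, and without mannose library 3 the falls numbered 8. The chemokine Cxcl9, which draws T cells into tumours, had 54.6, 53.0 and 42.2 against 26.3, 24.4 and 35.6 TPM.

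Genes of carcinoma cells rose. Of 10 tested carcinoma and epithelial markers 8 rose (80.0% against 23.2% of all genes) and 1, Cdh1, fell, with a median of 2.03, and the other 8 of the 18 listed were too low to test. Krt8, a keratin of simple epithelia, measured 206, 219 and 90.4 TPM in controls and 1050, 904 and 674 TPM with mannose (2.42, SE 0.35, adjusted p = 0.00331 in limma). Msln, the ovarian cancer surface antigen mesothelin, had 6.66, 7.18 and 3.34 against 45.4, 40.4 and 26.3 TPM (2.53, SE 0.30, adjusted p = 0.00206). The groups lay far apart in both, and control library 3 was the lowest of all. Cdh1, E-cadherin, which some myeloid and lymphoid cells also express, fell from 28.0, 28.1 and 30.1 TPM to 9.13, 9.55 and 14.4 TPM (-1.33, SE 0.17, adjusted p = 0.00269). All 8 rises held with any library left out and 7 of them with like pairs averaged (8.42% of all genes).

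Extracellular matrix and fibroblast genes rose too, 16 of 21 (76.2% against 23.2% of all genes), with a median of 1.62, while Thbs1 fell. Col1a1, the main collagen chain of fibroblasts, measured 42.1, 46.8 and 14.7 TPM in controls and 105, 101 and 86.0 TPM with mannose (1.62, SE 0.40, adjusted p = 0.0214 in limma), a call that ended without mannose library 1 or 2 (adjusted p of 0.0689 and 0.0699, differences of 1.56 and 1.59). Tnc, the matrix glycoprotein tenascin C, had 52.2, 50.3 and 17.8 against 206, 194 and 144 TPM (2.28, SE 0.40, adjusted p = 0.00613). Thbs1, thrombospondin, which macrophages also make, fell from 833, 793 and 836 TPM to 205, 175 and 122 TPM (-2.32, SE 0.18, adjusted p = 0.000468). Of 11 endothelial markers 5 rose (45.5%), among them Plvap, which encodes a protein of vessel wall openings, at 21.5, 24.7 and 16.6 against 53.8, 53.4 and 35.6 TPM. Fn1, Tnc and Dcn stayed called among matrix genes with like pairs averaged and no endothelial marker did. The matrix rises numbered 7 without mannose library 1 or 2, and the endothelial rises 2 without any 1 library other than mannose library 3 and 10 without that library.

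**Figure D3:**
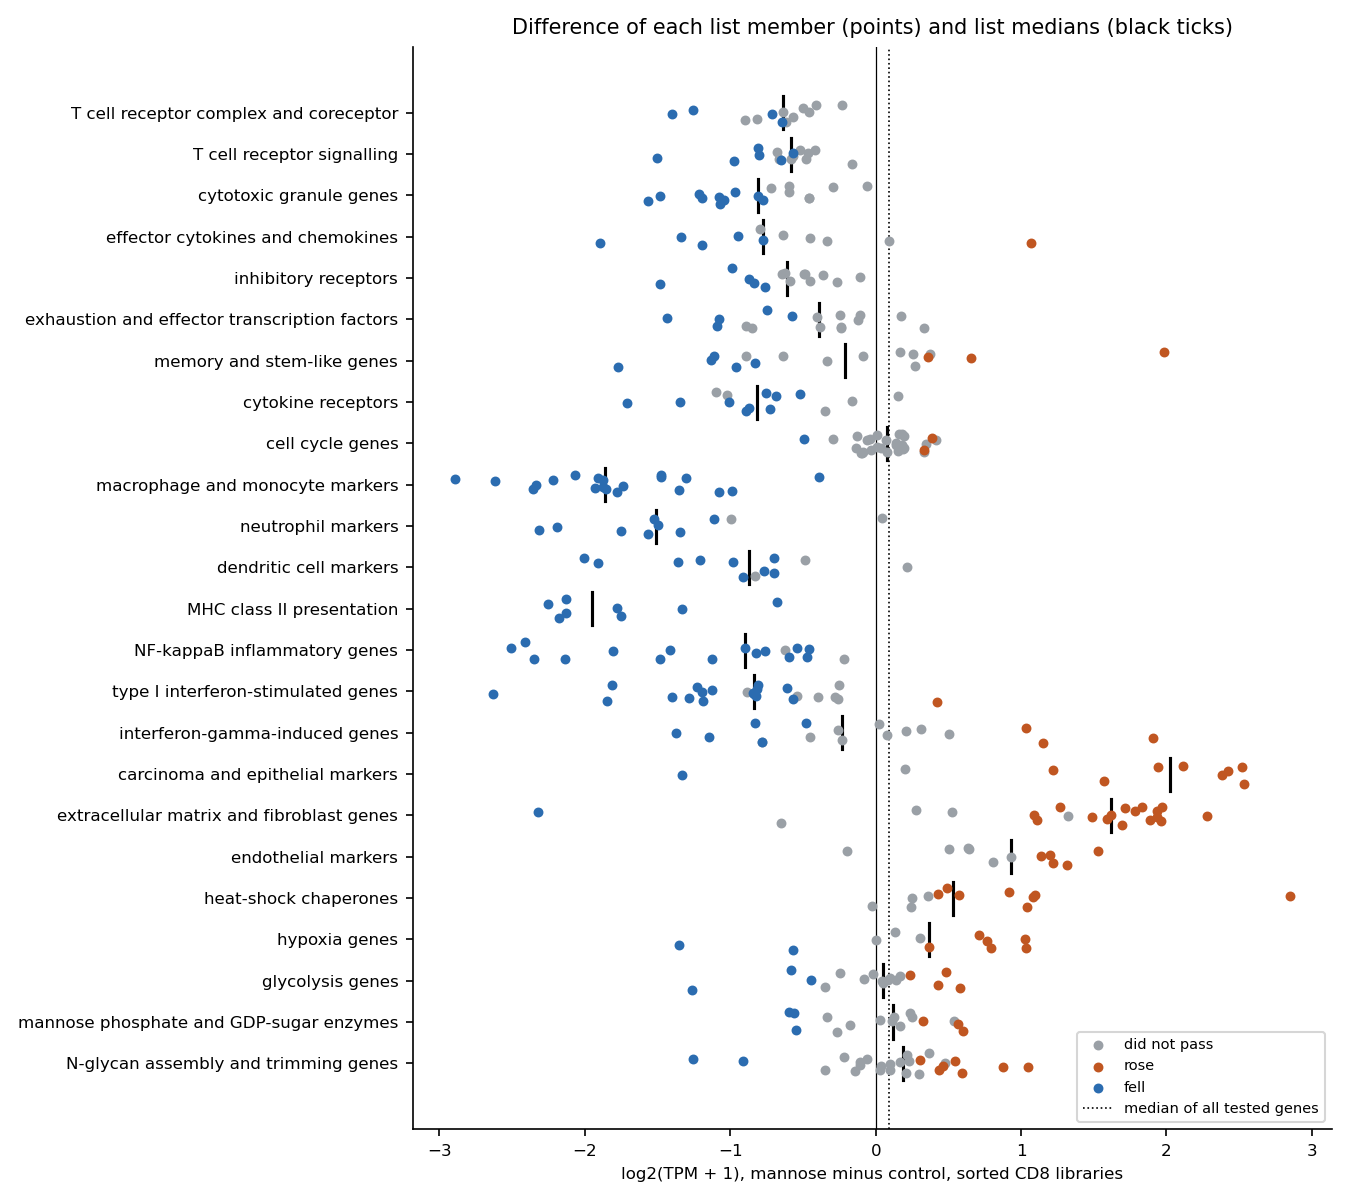
Difference in log2(TPM + 1), mannose minus control, of each tested member (points) of 24 gene lists in the sorted CD8 libraries; orange points rose, blue points fell, grey points did not pass, black ticks are list medians and the dotted line is the median of all tested genes (0.09). Macrophage and MHC class II members all lie on the left and carcinoma members but Cdh1 on the right, while the medians for exhaustion factors, memory genes and interferon-gamma-induced genes, which are on the left here, move to the right when scaled to T cell markers.

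The enzymes that handle mannose were called about as often as genes at large. Of 16 genes of mannose phosphate and GDP-sugar metabolism 3 rose (Pmm1, Gfus and Gfpt1) and 3 fell (Gmppb, Gmds and Uap1), 37.5% against 34.9% of all genes in either direction, with a median of 0.12. Mpi measured 9.23, 7.61 and 7.58 TPM in controls and 9.23, 8.28 and 10.3 TPM with mannose and did not pass (0.17, SE 0.14, adjusted p = 0.393 in limma). Pmm2, the mutase that prepares mannose for glycans, had 37.0, 35.9 and 35.8 against 29.6, 24.7 and 31.8 TPM and did not pass either (adjusted p = 0.0573). Gfpt1, the entry enzyme of the hexosamine pathway, rose from 34.7, 33.7 and 26.4 TPM to 48.9, 47.2 and 45.0 TPM (0.57, SE 0.12, adjusted p = 0.0122). No call of this list held with like pairs averaged, and with 1 library left out 1 to 2 genes rose and 1 to 4 fell. The single rise was seen without control library 2 or 3 or any mannose library, and the single fall without mannose library 2 or any control.

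N-glycan genes included 7 rises and 2 falls among 26, with a median of 0.19. The share called, 34.6%, was near the 34.9% of all genes. Alg2, a mannosyltransferase that extends the lipid-linked precursor, rose from 11.02, 10.6 and 8.39 TPM to 24.7, 22.0 and 18.6 TPM (1.05, SE 0.15, adjusted p = 0.00348 in limma). Mgat4a, which adds branches to mature N-glycans, fell from 21.1, 24.97 and 21.2 TPM to 7.95, 9.65 and 8.86 TPM (-1.26, SE 0.12, adjusted p = 0.00124). The groups were apart in both, and both calls held with like pairs averaged. Without mannose library 2 the list had 3 rises, and without mannose library 3 it had 4 falls.

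Of 17 glycolysis genes 4 rose and 3 fell (23.5% and 17.6%, against 23.2% and 11.7% of all genes), with a median of 0.05, or -0.04 with median-ratio scaling. The hexokinase gene Hk2, whose product phosphorylates mannose as well as glucose, had 52.9, 50.9 and 55.6 TPM in the controls and 48.3, 51.7 and 50.1 TPM with mannose and did not pass. The glucose transporter Slc2a1 rose from 164, 158 and 163 TPM to 235, 213 and 205 TPM (0.43, SE 0.08, adjusted p = 0.00662 in limma). Slc16a3, the lactate exporter MCT4, fell from 212, 226 and 235 TPM to 77.7, 83.4 and 124 TPM (-1.26, SE 0.17, adjusted p = 0.00295) and was the list's only call with like pairs averaged, while the related transporter Slc16a1 rose from 15.5, 15.6 and 14.4 TPM to 22.6, 23.8 and 23.1 TPM. Without mannose library 3 the falls of this list numbered 5. Nuclear genes of the respiratory chain had 5 falls in 20 and a median of -0.08, or 0.46 when scaled, and none was called with like pairs averaged. Their falls numbered 1 without mannose library 2.

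Of 12 heat-shock chaperones 8 rose (66.7% against 23.2% of all genes) and none fell, with a median of 0.53, or 1.08 when scaled to T cell markers. Hspb1, a small heat-shock protein that epithelial tumour cells express strongly, rose from 36.9, 31.7 and 24.8 TPM to 352, 304 and 111 TPM (2.85, SE 0.42, adjusted p = 0.00360 in limma). Dnajb1, a cochaperone of HSP70, had 31.4, 32.1 and 37.9 against 77.8, 76.5 and 58.4 TPM (1.04, SE 0.14, adjusted p = 0.00282). The inducible HSP70 gene Hspa1a, in contrast, had 34.7, 51.4 and 88.1 against 83.5, 80.8 and 21.8 TPM, with wide and overlapping groups. In all 3 genes mannose library 3 had the lowest value of its group. Control whole tumours held Hspb1 at 699 ± 81.7 TPM (SD, n = 5), and the carcinoma markers moved with it, whose part was not tested. Dnajb1, Hspb1 and Bag3 were called with like pairs averaged, and 6 to 10 of the list with 1 library left out. Of 11 hypoxia genes 6 rose and 2 fell (54.5% and 18.2%, against 23.2% and 11.7% of all genes), with Ndrg1, a growth-arrest gene, at 315, 304 and 334 against 601, 536 and 519 TPM (0.79, SE 0.08, adjusted p = 0.00149) and Hif1a itself lower, at 236, 231 and 256 against 139, 159 and 192 TPM. Falls there numbered 1 without mannose library 2, and 3 rises and 1 fall were called with like pairs averaged.

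Scaling to T cell markers shifts every list median by about the same amount, as the plot of list medians before and after scaling shows. Each library is divided by its own factor, so the spread within groups and the adjusted p change as well. On that scale the median of all genes was 0.58, and the medians were -1.32 for macrophage, -1.41 for MHC class II, -0.99 for neutrophil, 2.49 for carcinoma, 2.15 for matrix and 1.40 for endothelial lists.

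**Figure D4:**
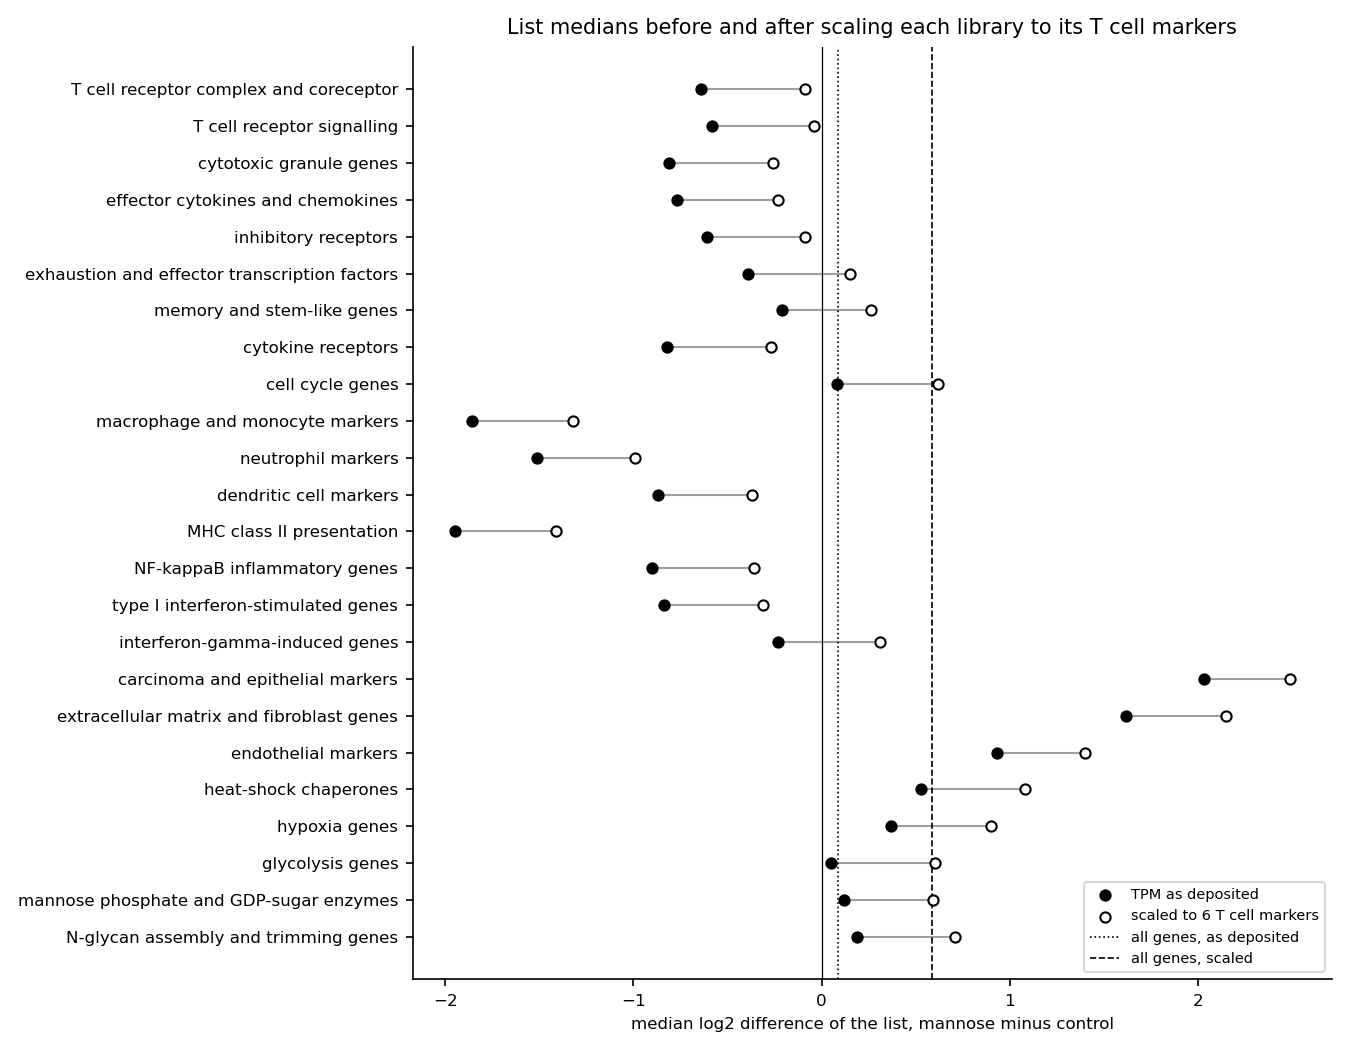
Median log2 difference, mannose minus control, of 24 gene lists (rows), with TPM as deposited (filled circles) and with each library scaled to 6 T cell markers (open circles); dotted and dashed lines are the medians of all genes, 0.09 and 0.58. All lists move right by a similar step. The T cell receptor list, which holds the 6 scaling markers, goes from -0.64 to -0.09, a move that the scaling itself largely sets.

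The largest single changes, among genes with a mean of at least 5 TPM, were of the same kinds. The 12 largest falls were Ccl24, Fcgr1, Chil3, Serpinb2, F10, Scimp, Cd40, Slfn4, Rsad2, Arg1, Slc15a3 and Trem1, with differences of -2.98 to -2.59. Ccl24, an eosinophil attractant made by alternatively activated macrophages, measured 1622, 1563 and 1876 TPM in controls and 267, 173 and 207 TPM with mannose (SE 0.16, adjusted p = 0.000222 in limma). Chil3, a chitinase-like protein of the same cells, had 41.1, 39.4 and 68.3 against 5.30, 5.70 and 6.52 TPM, and Trem1, an activating myeloid receptor, had 59.2, 59.6 and 72.8 against 9.87, 8.59 and 10.8 TPM. All 12 were also called with like pairs averaged and with T cell marker scaling.

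The 12 largest rises were Tenm4, Cldn2, Tnr, Hspb1, Tmem200a, Tff2, Ctnnal1, Slc38a4, Baiap2l1, Thsd4, Speg and Tspan8, with differences of 3.05 to 2.63. Cldn2, a claudin of leaky epithelial tight junctions, measured 18.7, 19.2 and 4.48 TPM in controls and 134, 106 and 70.5 TPM with mannose (SE 0.52, adjusted p = 0.00618). Tspan8, a tetraspanin of epithelial tumours, had 9.01, 7.92 and 3.53 against 54.8, 50.5 and 32.6 TPM, and the amino acid transporter Slc38a4 had 14.2, 13.4 and 4.12 against 82.0, 75.5 and 49.0 TPM. Control library 3 held the lowest value of its group in all 3. In control whole tumours, whose tables were normalized separately, these 3 genes stood at 156 ± 40.7, 58.9 ± 9.74 and 86.4 ± 12.1 TPM (SD, n = 5). All but Tff2 were called with like pairs averaged, and Tff2 also lost its call without any 1 library other than mannose library 3 (adjusted p of 0.0636 to 0.103, differences of 2.22 to 2.97).

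**Figure D5:**
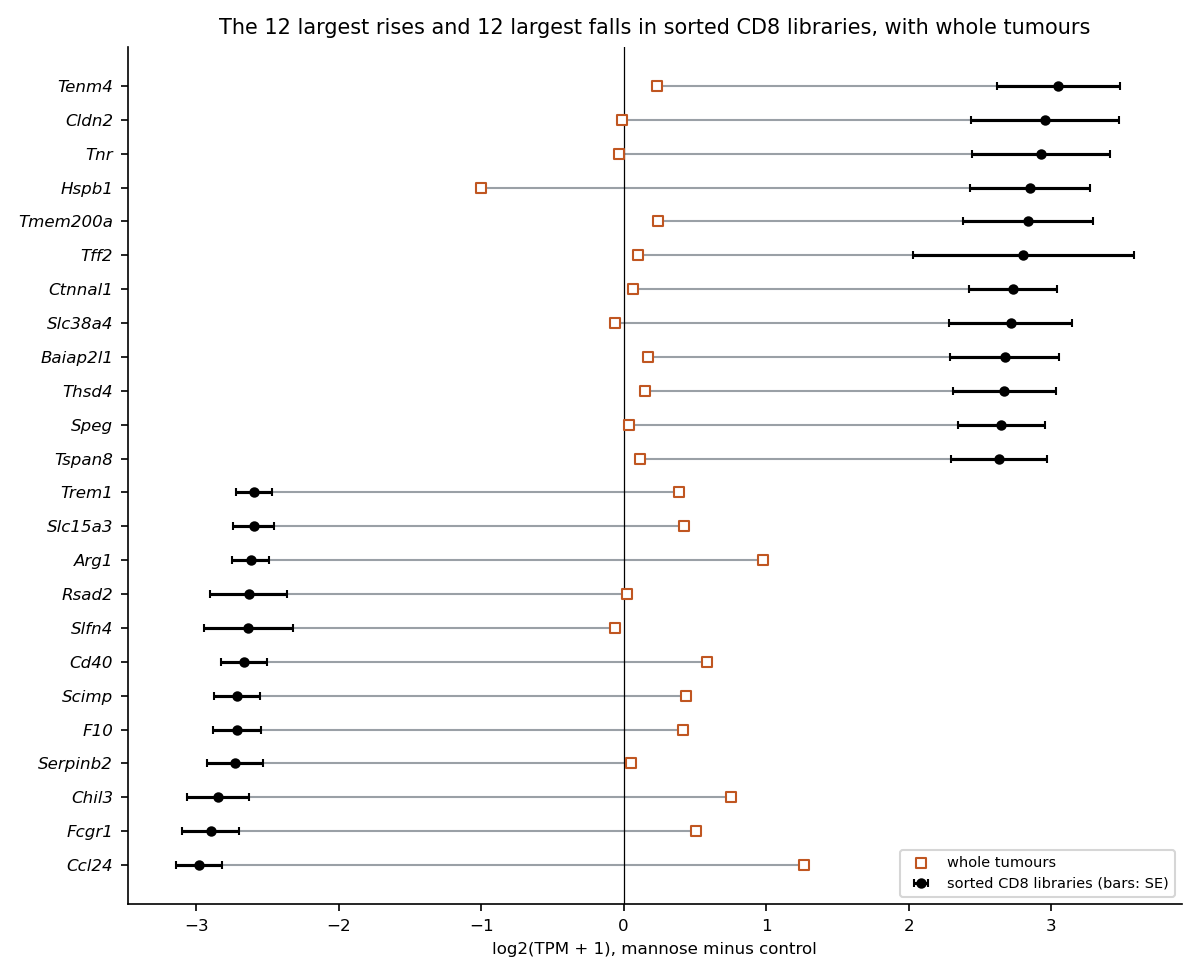
Difference in log2(TPM + 1), mannose minus control, of the 12 genes with the largest rises and the 12 with the largest falls in sorted CD8 libraries (filled circles, bars are SE), with the same difference in whole tumours (open squares). All falls lie at or below -2.59 in sorted libraries while the tumour values of the same genes lie between -0.06 and 1.26, and tumour Hspb1 lies below 0.

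In whole tumours none of 13282 genes passed the same test in limma, and 827 had an unadjusted p under 0.05. The difference between the effect in sorted cells and that in tumours was tested directly, as an interaction over all 16 libraries, without averaging like pairs. Of 15498 genes 1712 had a higher effect in sorted cells (11.0%) and 1184 a lower one (7.64%), 18.7% in either direction. Among macrophage markers 18 of 20 had a lower effect in sorted cells, among cytotoxic granule genes 9 of 17, among NF-kappaB genes 10 of 17 and among T cell receptor genes 2 of 13. In the other direction, 8 of 10 carcinoma markers, 5 of 12 heat-shock chaperones and 5 of 21 matrix genes had a higher effect in sorted cells. Gzmb differed by -2.32 between the tissues (adjusted p = 0.0479), Csf1r by -2.49 and Krt8 by 2.67. Without mannose library 1 the counts over all genes were 1139 higher and 743 lower, without mannose library 2 the lower count was 781, and without control tumour 1 the higher count was 2631.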

How the data were processed

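For each library the authors deposited a table of gene symbols with TPM, the abundance of a gene's transcripts relative to a fixed total. No header names this unit. It was inferred because the 6 sorted CD8 tables sum to 997232 to 997810. RNA was total RNA extracted with TRIzol, per the labels' protocols. Fastp, HISAT, RSEM and the build GRCm39 are named without their roles, per the submitters' processing notes, and the annotation release is not given in the sources used here. TPM keep no read totals, so depth is unknown. Values of 0 can be failed estimates.

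Entries that shared a symbol were summed (55438 entries, 55290 symbols). Groups came from the sample labels. Differences were tested with limma 3.58.1 (variance trend) in R 4.3.3 on log2(TPM + 1) of the deposited values, 2-sided, with Benjamini-Hochberg adjustment over all genes with at least 1 TPM in 3 or more of the 6 libraries and a threshold of 0.05. The interaction with tissue was fitted over 16 libraries and 52916 shared symbols. The fitting code was tested on simulated data with known changes.

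The members, the 46 lists (674 genes, 2 matched by a synonym) and the tests were chosen with earlier results of these data known. The rule for named genes took the 12 largest rises and falls that passed, leaving out predicted genes and means under 5 TPM, up to 4 members of each list past it in each direction, up to 2 of the highest that did not pass, a panel of T cell and other markers, and the 5 genes of smallest interaction p. Other members named in the text, such as Cxcl1, Nfkbia and Ifit1 among the promoters, Gzmc, Gzmg, Apoe, Plvap and those listed as called with like pairs averaged, were chosen after their values were seen. Some genes are not reported here. Promoters are 250 bases upstream from RefSeq (GRCm38.p6), an older build than that of the tables, matched by symbol. Figures were drawn with matplotlib 3.10.9.

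Alternatives changed 1 choice at a time: pseudocounts of 0.1 and 5, no filter on low values or at least 5 TPM, quantile and median-ratio scaling, scaling to 6 T cell markers, like pairs averaged, the replicate number as a block, a joint fit of all 16 libraries, and leaving out each library in turn.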

Additional observations from a re-analysis of the deposited data

Results flagged for a closer look

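Flagged here are 8 genes whose mannose effect differed between sorted CD8 libraries and whole tumours. The test was of the difference itself, the interaction in limma with Benjamini-Hochberg adjustment, which 18.7% of all genes passed. Named genes included the 5 of smallest interaction p, so very small values among the 8 follow in part from that choice. Arg1, the arginine-degrading enzyme of suppressive macrophages, differed by -3.60 (adjusted p = 3.64e-05), Ccl24 by -4.25 (adjusted p = 2.09e-04) and the mannose receptor Mrc1 by -2.87 (adjusted p = 6.18e-05). Tumour values with mannose and control, each as mean ± SD (n = 5), were 256 ± 106 and 125 ± 29.6 TPM for Arg1, 712 ± 417 and 272 ± 110 TPM for Ccl24 and 52.9 ± 10.8 and 33.9 ± 9.34 TPM for Mrc1. None of these tumour differences passed (adjusted p = 0.754), although 4 of 5 mannose tumours exceeded every control for Arg1 and 3 of 5 for Ccl24.

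Il1r2, Ccr1 and Il1b differed by -2.32, -3.09 and -2.69 (adjusted p of 6.13e-06 for each). Ccr1, a chemokine receptor of monocytes, was at 26.7 ± 4.82 TPM in mannose tumours and 16.04 ± 3.33 TPM in control tumours, with 5 of 5 above every control. Trem1 differed by -2.98 (adjusted p = 7.03e-06) and Pilra, an inhibitory myeloid receptor, by -2.15 (adjusted p = 8.43e-06). All 8 genes fell in the sorted libraries. The sorted and tumour tables were normalized separately, and the difference was taken within each.

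The lowest control tumour for Trem1, at 3.55 TPM, stood apart from the other 4. It was found among 16 groups examined this way, of which chance would give about 1 in 20.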

How the results depend on the processing

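Over the named genes and alternatives run, 4173 values kept direction and side of the threshold, 667 were no longer past it and 109 came to pass it. Another 91 values changed sign in genes that passed the test neither way, 37 of them with T cell marker scaling. Among genes called with TPM as deposited 12 changed sign, each with T cell marker scaling and none called there: Atp5o 0.28, Cenpa 0.053, Mdh2 0.24, Ndufa1 0.13, Nfe2l2 0.18, Pfkp 0.10, Pmaip1 0.041, Psmb9 0.051, Sdhb 0.078, Skil 0.068, Slc25a20 0.12 and Zfp36 0.15. That scaling left 425 falls, and averaging like pairs left 1202 rises and 585 falls, with fewer samples by construction. Leaving out 1 library gave 1979 to 3491 rises and 937 to 2511 falls in sorted cells, and 1139 to 2631 higher and 743 to 1610 lower effects than in tumours. Where 1 library was left out of a group of 3, the spread is estimated from fewer libraries. Median-ratio scaling gave 2752 rises and 2326 falls and quantile normalization 2673 and 2305, which moves the share of rises among calls from that of 3306 against 1674. The interaction gave 1974 and 1666 with median-ratio scaling. Whether replicate numbers pair the samples was not settled. Deviations of same-numbered libraries correlated at 0.057, 0.095 and 0.163, and those of other pairs at -0.156 to 0.115. Control library 2 correlated best with mannose library 1 (0.115). The replicate block gave 3152 rises and 1686 falls. In these alternatives the cause of a change was not tested unless stated. Unknown depth, 3 libraries a group, the like pairs and the headings of the columns limit every result.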

Other observations

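Immediate-early genes, which cells induce within minutes of stimulation or of handling, included 7 rises and 2 falls among 15 tested. These are 46.7% and 13.3% of the list against 23.2% and 11.7% of all genes, so the share of falls was near that of all genes. The median was 0.06, or -0.03 with median-ratio scaling. Fos, a subunit of AP-1, rose from 154, 138 and 92.6 TPM to 356, 344 and 303 TPM (1.40, SE 0.19, adjusted p = 0.00282 in limma), and Jun, its partner, from 58.6, 65.0 and 58.0 TPM to 193, 187 and 124 TPM (1.43, SE 0.17, adjusted p = 0.00219). Egr2, a factor induced by receptor signalling, fell from 26.5, 22.8 and 30.2 TPM to 11.9, 10.8 and 15.6 TPM. All 3 calls held with like pairs averaged, and the rises of the list numbered 3 without control library 3.

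TGF-beta genes split in a similar manner, with 5 rises and 3 falls among 14 (35.7% and 21.4%, against 23.2% and 11.7% of all genes), of which 3 and 1 were called with like pairs averaged. The coreceptor Tgfbr3 rose from 6.82, 6.69 and 3.26 TPM to 30.8, 28.0 and 20.9 TPM. Tgfbi, a matrix protein that macrophages make, fell from 279, 274 and 291 TPM to 64.5, 51.2 and 81.9 TPM. The groups were apart in both genes. Among 14 glutathione and NRF2 genes 2 rose (Nqo1 and Keap1) and 4 fell, 14.3% and 28.6% against 23.2% and 11.7% of all genes, with a median of -0.1. With 1 library left out the rises numbered 0 to 3 and the falls 3 to 5. The cystine transporter Slc7a11 fell from 18.5, 19.3 and 22.0 TPM to 3.74, 2.60 and 3.55 TPM (-2.29, SE 0.15, adjusted p = 0.000290) and the haem oxygenase Hmox1 from 145, 141 and 142 TPM to 63.6, 56.9 and 63.8 TPM. Without control library 3, mannose library 1 or mannose library 2 the TGF-beta rises numbered 3.

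Platelet chemokine genes, which macrophages can express as well, were present at high levels and fell together. Pf4 went from 442, 440 and 352 TPM to 106, 72.0 and 93.7 TPM (-2.18, SE 0.16, adjusted p = 0.000349) and Ppbp from 85.4, 80.7 and 62.3 TPM to 16.8, 13.7 and 17.2 TPM, while the platelet integrin Itga2b stayed under 3.2 TPM and rose from 1.09, 0.55 and 1.18 TPM to 2.87, 2.64 and 3.18 TPM. The platelet glycoprotein gene Gp9 did not exceed 0.36 TPM in any library.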
